A study of Homo sapiens with 8 samples.

Results

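Ceramide is made de novo at the endoplasmic reticulum in 4 enzymatic steps, and this report follows the 10 genes SPTLC1, SPTLC2, SPTLC3, KDSR, CERS1, CERS2, CERS4, CERS5, CERS6 and DEGS1, which encode enzymes of those steps, in A375 melanoma cells with and without TNF. The genes were chosen by name, as the rows of the count table that carry these symbols. All 10 were found among the 60710 genes of the table, and 9 of them were among the 16186 genes that passed the filter on low counts and were tested. A375 is a human metastatic melanoma cell line obtained from ATCC and grown in DMEM with fetal bovine serum. The cells were either left untreated (NT, n = 4) or treated with 50 ng/mL human recombinant TNF (n = 4), and polyadenylated RNA was sequenced at 24 h in 4 independent experiments, each of which gave 1 NT and 1 TNF library. Only 1 cell line was used, and neither group carries a genetic change made for the study.

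Serine palmitoyltransferase condenses serine with palmitoyl-CoA, the step that commits carbon to sphingolipids, and KDSR reduces its product to dihydrosphingosine. Ceramide synthases (CERS) then attach a fatty acid, each with its own preference for chain length, and the desaturase DEGS1 turns the resulting dihydroceramide into ceramide. Ceramide is the precursor of sphingomyelin and of glycosphingolipids, including the gangliosides that melanoma cells carry at their surface, and sphingosine released from ceramide can be acylated again by the same ceramide synthases.

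Total counts per library ran from 30989787 to 44373296. All 10 tested targets of NF-kB, the transcription factor activated by TNF, rose in TNF-treated cells, with a median log2 fold change of 3.30 (edgeR, adjusted p under 0.05 for each). One of them, CXCL2, had only 2 to 13 counts in NT libraries and passed the filter on low counts through the TNF group. By the other targets the libraries matched their treatment labels, and these genes cannot tell which experiment a library comes from. Of 8 melanocytic genes, SOX10 was high at 1025 ± 53.9 CPM (mean ± SD, n = 4, with CPM the read count scaled to a common library size) in NT cells, whereas MLANA, PMEL, TYR, DCT and TYRP1 were each at a mean of 0.458 CPM or lower in both groups, so these pigment cell genes were near 0 in this line. MITF, the master regulator of the lineage, was at 21.0 CPM in NT and 21.96 CPM in TNF-treated cells, and S100B was the 1 melanocytic gene called, at 17.3 and 3.05 CPM (log2 fold change -2.50, adjusted p = 6.77e-06 from edgeR). The summed level of 4 keratinocyte markers ran from 16.1 to 22.4 CPM in NT libraries and from 8.60 to 11.997 CPM in TNF libraries, that of 4 fibroblast markers from 2.06 to 5.94 and from 2.69 to 5.63 CPM, that of 4 leukocyte markers from 4.91 to 7.10 and from 1.94 to 5.40 CPM, and that of 3 endothelial markers from 0.825 to 1.80 and from 2.12 to 3.43 CPM. Single markers moved apart within these sums. KRT5 rose from 0.192 to 1.61 CPM while KRT14 fell from 18.3 to 8.39 CPM, PECAM1 rose from 0.312 to 2.30 CPM while VWF, at 0.681 and 0.226 CPM, was not called (adjusted p = 0.0514 from edgeR), DCN rose from 0.550 to 1.48 CPM and LYZ fell from 5.801 to 3.10 CPM. KRT5 had only 4 to 13 counts and PECAM1 only 6 to 21 counts in NT libraries, so both passed the filter on low counts through the TNF group. The part of these markers in the results was not tested. Nothing in the sources says whether the 4 experiments used separately thawed cultures, so p-values measure the spread between these experiments.

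Among the 9 tested genes, TNF changed 4. KDSR rose by a fold of 1.34, and the ceramide synthase genes CERS1, CERS4 and CERS6 fell to 0.701, 0.333 and 0.796 of their NT level. The transcripts of SPTLC1, SPTLC2, DEGS1, CERS2 and CERS5 did not pass the test, although CERS2 passed as higher (adjusted p = 0.00734) when edgeR compared the libraries within each experiment. Thus 4 of 9 members were called, where 24.4% of all tested genes were called (3948 of 16186). The 1 gene that rose stands against a background of 14.5% of genes higher with TNF, and the 3 that fell against 9.90% of genes lower. That balance of 2345 higher and 1603 lower genes turned to 1925 and 2514 when counts were scaled by library totals and to 2045 and 2196 with upper-quartile factors, while the calls of the 9 members were the same under both. The median log2 fold change of the 9 members was -0.06, with a range from -1.58 to 0.43, and that of all genes tested was -0.0035. No test of the list was made, and nothing is read from its share, since the count of members called lower ran from 1 to 4 when 1 library was left out. It was 1 without TNF replicate 2, 2 without NT replicate 1, 3 or 4 or TNF replicate 3, and 4 without TNF replicate 4. SPTLC3 is counted here wherever it passed the filter on low counts in a refit. Without NT replicate 1, CERS1 alone of the 9 tested genes was called lower (adjusted p = 0.0296 from edgeR), and the other call was that of SPTLC3. In 4 of the 9 members, the same 4 genes, the NT and TNF libraries did not overlap, where 27.3% of all tested genes had groups that did not overlap. Because whole cultures were sequenced, fewer cells expressing a gene and less RNA per cell cannot be told apart.

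**Figure D1:**
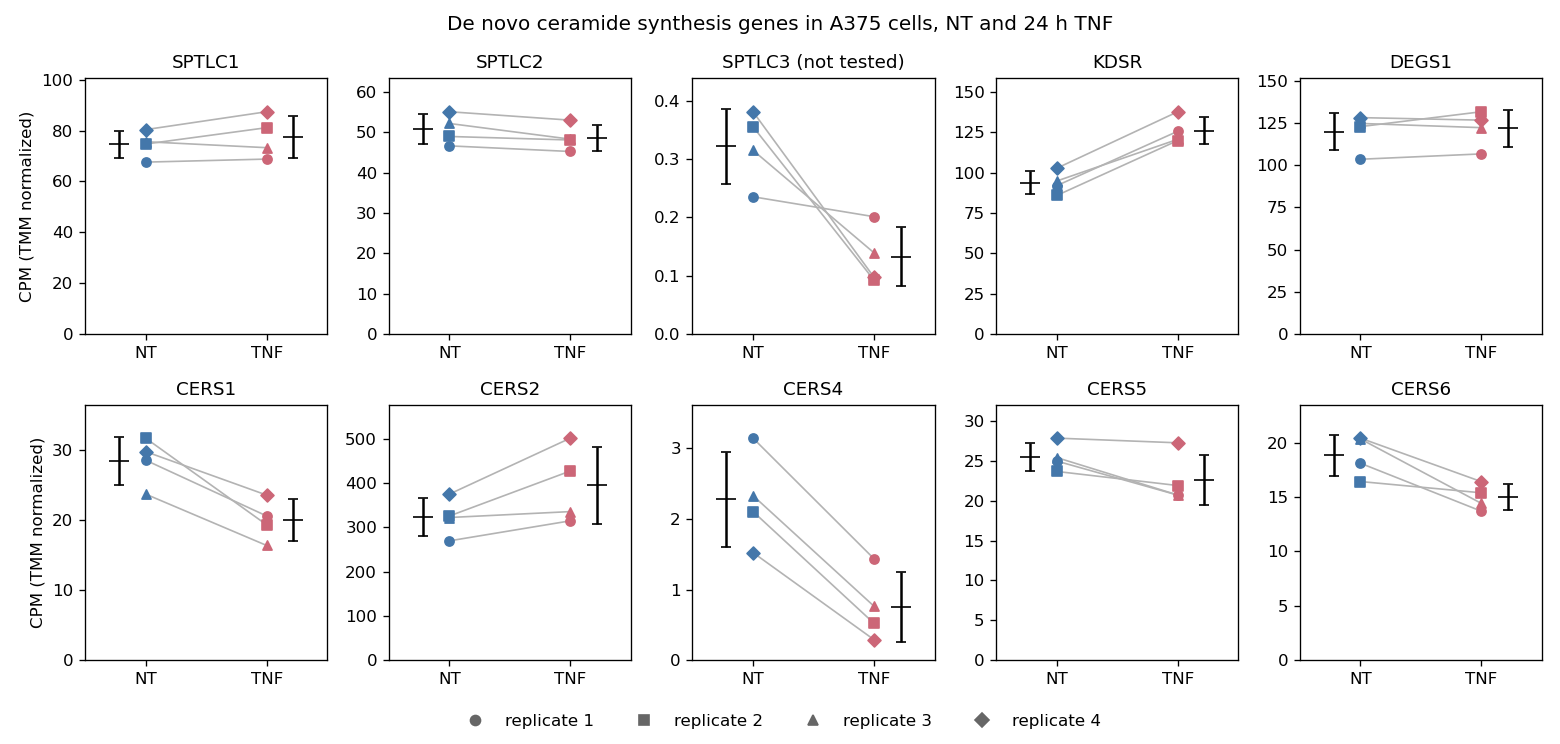
Level of each gene in CPM (TMM-normalized, linear axes from 0, scaled separately per gene) in the 4 NT and 4 TNF libraries. Points are libraries, grey lines join the libraries of an experiment, and the black marks beside them are the mean ± SD of 4. The lines of KDSR all rise (85.8 to 103 CPM against 120 to 138 CPM), those of CERS1, CERS4 and CERS6 all fall, and those of SPTLC1 and DEGS1 go both ways.

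The sequences before the start sites are shown for 3 of the 4 genes that TNF changed, KDSR as the gene that rose and CERS1 and CERS6 as genes that fell. They are the 250 bases before the RefSeq start site on GRCh38.p14, written 5′ to 3′ on the strand of the gene: KDSR at chr18:63367207-63367456 (minus strand), CERS1 at chr19:18896159-18896408 (minus strand, the start site at 18896158) and CERS6 at chr2:168456022-168456271 (plus strand). Capitals mark GGGCGG and CCAAT, searched on both strands and so also printed as CCGCCC and ATTGG.
KDSR: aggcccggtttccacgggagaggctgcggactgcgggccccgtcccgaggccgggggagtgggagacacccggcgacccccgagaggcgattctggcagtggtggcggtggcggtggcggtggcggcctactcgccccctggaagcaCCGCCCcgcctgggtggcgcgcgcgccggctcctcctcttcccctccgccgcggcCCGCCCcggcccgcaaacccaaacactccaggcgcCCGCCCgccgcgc
CERS1: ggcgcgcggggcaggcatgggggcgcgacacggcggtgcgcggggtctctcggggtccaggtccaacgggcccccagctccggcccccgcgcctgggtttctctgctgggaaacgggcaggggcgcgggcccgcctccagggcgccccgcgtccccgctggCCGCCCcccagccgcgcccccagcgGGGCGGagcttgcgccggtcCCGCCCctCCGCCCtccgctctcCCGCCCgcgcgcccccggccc
CERS6: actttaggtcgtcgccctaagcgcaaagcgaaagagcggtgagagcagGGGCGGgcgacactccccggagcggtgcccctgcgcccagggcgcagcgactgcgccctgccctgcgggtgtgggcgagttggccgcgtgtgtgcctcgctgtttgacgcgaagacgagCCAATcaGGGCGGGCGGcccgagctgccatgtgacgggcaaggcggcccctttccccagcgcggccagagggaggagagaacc

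The KDSR window held 3 matches to GGGCGG, all on the opposite strand, at positions -103, -48 and -13 from the start site. That of CERS1 held 5, at positions -89, -64, -44, -36 and -21. That of CERS6 held 3, of which the pair at -76 and -72 overlap, beside 1 match to CCAAT at -83. GGGCGG, the core letters of GC boxes, was found in 42.6% of the 35116 RefSeq windows of this length and CCAAT in 32.0%. G and C made up 78.4% of the KDSR window, 83.6% of the CERS1 window and 70.4% of the CERS6 window, with a median of 58.0% over all windows. None of the 3 windows held CACGTG (6.34% of all windows), TGACGTCA (1.65%) or the NF-kB consensus (9.96%). CERS1 has a second window in the table, for a start site at 18896982, which held 0 matches to GGGCGG and 3 to CCAAT, with 58.4% G and C. That site lies outside the annotated gene (18868545-18896727), and the bases just after it were not found in an annotated CERS1 transcript. GGGCGG was also found before genes that were not called, with 2 matches for SPTLC1, 2 for SPTLC2, 5 for CERS5 and 4 in 1 of the 2 windows of DEGS1. A match describes letters and is not a binding site. Windows were found for 7 of the 10 genes, and CERS2, CERS4 and SPTLC3 had no entry in the table used.

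SPTLC1 encodes the subunit that every form of serine palmitoyltransferase contains. Its level was 67.6, 74.7, 75.6 and 80.4 CPM in NT replicates 1 to 4 and 68.8, 81.1, 73.3 and 87.4 CPM in the TNF replicates. The groups overlapped, with replicate 1 lowest in both and replicate 4 highest in both. The log2 fold change was 0.06 (SE 0.09, adjusted p = 0.701 from edgeR), a fold of 1.04 with a 95% confidence interval from 0.907 to 1.19, and its sign turned with upper-quartile factors or library totals. TNF libraries were higher in 3 of 4 experiments. The gene lies on chromosome 9 (92000087-92115413, minus strand, GRCh38) and has processed copies elsewhere in the genome. The 5 annotated copies, SPTLC1P1 to SPTLC1P5, took between 0 and 4.78 counts in any library, against 2396 to 3163 for SPTLC1 itself.

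SPTLC2 (chromosome 14, 77505997-77616637, minus strand) encodes the catalytic partner of SPTLC1. It was at 46.6, 48.96, 52.2 and 55.1 CPM in NT replicates 1 to 4 and at 45.2, 48.1, 48.3 and 53.0 CPM in TNF replicates 1 to 4. Each TNF library was slightly below the NT library of its experiment, and the groups overlapped widely. The log2 fold change was -0.06 (SE 0.08, adjusted p = 0.651 from edgeR), and the interval of the fold ran from 0.850 to 1.08.

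SPTLC3 (chromosome 20, 13008972-13169103, plus strand) encodes the alternative catalytic subunit, which favors shorter acyl-CoAs. It was measured by only 11, 13, 10 and 12 counts in NT replicates 1 to 4 and by 7, 3, 6 and 3 counts in the TNF replicates. The gene did not pass the filter on low counts and was not tested with the others. Normalized, these were 0.235 to 0.381 CPM in NT and 0.0921 to 0.201 CPM in TNF libraries, so that the groups did not overlap, although replicate 1 differed little (0.235 and 0.201 CPM). The log2 ratio of the mean CPM was -1.28, and when the filter was left off, edgeR gave -1.25 with an adjusted p of 0.136. With NT replicate 1 left out, SPTLC3 passed the filter and was called lower by edgeR.

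KDSR encodes 3-ketodihydrosphingosine reductase, the enzyme of the step after serine palmitoyltransferase, and was the only member called higher. Its level was 91.9, 85.8, 94.8 and 103 CPM in NT replicates 1 to 4 and 126, 120, 121 and 138 CPM in the TNF replicates. The lowest TNF library was above the highest NT library. The mean went from 93.8 ± 7.01 CPM in NT to 126 ± 8.24 CPM in TNF-treated cells (SD, n = 4 each), a log2 fold change of 0.43 (SE 0.08, adjusted p = 0.00237 from edgeR) and a fold of 1.34 with a 95% confidence interval from 1.19 to 1.51. The difference within an experiment was similar in all 4, at 0.45, 0.48, 0.35 and 0.42 on the log2 scale for replicates 1 to 4. By absolute log2 fold change KDSR ranked 1839th among the 2345 genes higher with TNF, so its rise was modest beside those of most genes that rose. KDSR has 10 exons in its canonical transcript and lies on chromosome 18 (63327726-63367228, minus strand), and the 250 bases before its start site are those printed above.

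CERS1 encodes the ceramide synthase that prefers stearoyl-CoA and is known best from brain. It was at 28.6, 31.7, 23.7 and 29.8 CPM in NT replicates 1 to 4 and at 20.6, 19.3, 16.4 and 23.6 CPM in the TNF replicates. All TNF libraries were below all NT libraries, by a narrow gap between NT replicate 3 and TNF replicate 4. The mean went from 28.5 ± 3.41 to 20.0 ± 2.98 CPM (SD, n = 4 each), which is a log2 fold change of -0.51 (SE 0.12, adjusted p = 0.0123 from edgeR) and a fold of 0.701 with a 95% confidence interval from 0.580 to 0.849. The 4 within-experiment differences were -0.47, -0.71, -0.53 and -0.34 on the log2 scale. CERS1 ranked 896th among the 1603 genes lower with TNF.

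The CERS1 transcript (chromosome 19, 18868545-18896727, minus strand) is unusual in that it also carries the reading frame of the growth factor gene GDF1. On the annotation used, 8 of the 8 exons of the canonical CERS1 transcript are identical with those of GDF1, so reads cannot be assigned to either gene with certainty. The count table gave GDF1 132 counts in NT replicate 2, 47 counts in TNF replicate 3 and 0 counts in the other 6 libraries. With the counts of both genes summed, the log2 fold change was -0.54 (adjusted p = 0.0119 from edgeR), so the call was the same with either counting.

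CERS2 encodes the synthase of very long chain ceramides and is the most widely expressed of the family. Its level was 270, 326, 322 and 375.1 CPM in NT replicates 1 to 4 and 315, 427, 336 and 501 CPM in the TNF replicates. TNF replicates 2 and 4 lay above every NT library, and TNF replicates 1 and 3 lay within the NT range. The log2 fold change was 0.29 (SE 0.15, adjusted p = 0.211 from edgeR) and the 95% confidence interval of the fold, from 0.967 to 1.54, included 1. Expression was higher with TNF in 4 of 4 experiments, by 0.22, 0.39, 0.06 and 0.42 on the log2 scale, and with the experiment as a block the log2 fold change was 0.27 with an adjusted p of 0.00734 from edgeR. In that blocked fit 5 of the 9 members were called, KDSR and CERS2 higher and CERS1, CERS4 and CERS6 lower, where 39.5% of all tested genes were called. The counts as filed under the single samples join each TNF library to an NT library whose column carries another experiment date. Blocked in that way, the adjusted p from edgeR was 0.385. CERS2 was thus called with the libraries paired by date and not with this other pairing, and replicate 4 was the highest library of both groups. CERS2 (chromosome 1, 150960583-150975003, minus strand) overlaps SETDB1 on the other strand. The library kit was stranded, but whether the counting used strand is not given in the sources used here, and SETDB1 was at 56.4 to 63.3 CPM in NT and 48.6 to 59.1 CPM in TNF libraries.

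CERS4 (chromosome 19, 8206736-8262421, plus strand), which makes ceramides with stearic and arachidic acid, had the largest fall among the members. It was at 3.14, 2.10, 2.33 and 1.52 CPM in NT replicates 1 to 4 and at 1.44, 0.522, 0.764 and 0.291 CPM in the TNF replicates. The order of the experiments was the same in both groups, with replicate 1 highest and replicate 4 lowest, and NT replicate 4 was close above TNF replicate 1. The mean went from 2.27 ± 0.67 to 0.753 ± 0.494 CPM (SD, n = 4 each), with a log2 fold change of -1.58 (SE 0.41, adjusted p = 0.0166 from edgeR) and a fold of 0.333 with a 95% confidence interval from 0.178 to 0.624. These values rest on 48 to 147 counts in NT and 9 to 50 counts in TNF libraries, and with a level this low the gene passed the filter through the NT group. Without NT replicate 1 the log2 fold change was -1.39 and the adjusted p 0.0505, and without TNF replicate 2 they were -1.45 and 0.0559, so the call depended on each of these libraries. CERS4 ranked 141st among the 1603 genes lower with TNF.

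CERS5 (chromosome 12, 50129289-50167533, minus strand) and CERS6 (chromosome 2, 168456249-168775134, plus strand) are close relatives that both make ceramides with palmitic acid. CERS5 was at 24.96, 23.7, 25.4 and 27.8 CPM in NT replicates 1 to 4 and at 20.7, 21.9, 20.7 and 27.2 CPM in the TNF replicates. TNF replicates 1 to 3 were below all NT libraries, and TNF replicate 4 was near the NT maximum. The log2 fold change was -0.17 (SE 0.10, adjusted p = 0.284 from edgeR), with an interval of the fold from 0.757 to 1.04, and without TNF replicate 4 it was -0.27 with an adjusted p of 0.0322. CERS6 was at 18.1, 16.4, 20.3 and 20.4 CPM in NT replicates 1 to 4 and at 13.7, 15.4, 14.4 and 16.4 CPM in the TNF replicates. The groups did not overlap, but TNF replicate 4 (16.405 CPM) and NT replicate 2 (16.420 CPM) were all but equal. The log2 fold change of CERS6 was -0.33 (SE 0.10, adjusted p = 0.0380 from edgeR), with an interval of the fold from 0.681 to 0.931. Whether the changes of CERS5 and CERS6 differ was not tested. The CERS6 call was lost when any of NT replicates 1, 3 and 4 or TNF replicates 1, 2 and 3 was left out, with adjusted p from 0.0596 to 0.107, and its direction was the same each time. The antisense gene CERS6-AS1 was at 0.157 to 2.07 CPM over all libraries.

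DEGS1 (chromosome 1, 224175756-224193441, plus strand), the desaturase of the last step, did not pass the test. It was at 103, 122.8, 125 and 128 CPM in NT replicates 1 to 4 and at 107, 132, 122 and 127 CPM in the TNF replicates. Replicate 1 was the lowest library of both groups, and TNF was higher in 2 experiments and lower in 2. The log2 fold change was 0.02 (SE 0.09, adjusted p = 0.887 from edgeR), and the fold of 1.02 had a 95% confidence interval from 0.885 to 1.17. The sign of this small difference turned with upper-quartile factors or library totals.

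**Figure D2:**
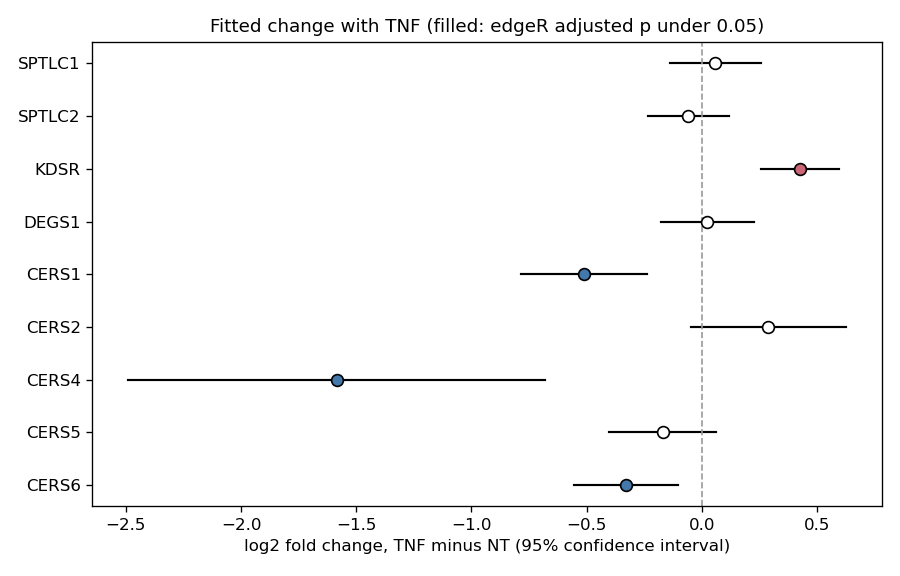
Log2 fold change (TNF minus NT) of the 9 tested genes with its 95% confidence interval from edgeR. Filled points passed an adjusted p of 0.05 (red higher, blue lower). KDSR lies wholly above 0, CERS1, CERS4 and CERS6 wholly below, and CERS4 has the widest interval.

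The remaining paralogs of the pathway were not measurably expressed. CERS3, the ceramide synthase of epidermis and testis, had 0 counts in all 8 libraries. A count of 0 allows up to 3 counts per library, which is 0.0641 to 0.0971 CPM here (counting error only). DEGS2, the second dihydroceramide desaturase, had between 0 and 2 counts per library.

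To compare the genes with each other, CPM was divided by the length of the canonical transcript in kilobases. CERS2 had the highest level, 139 ± 18.6 CPM per kilobase in NT cells (SD, n = 4), followed by DEGS1 at 58.9 ± 5.46, SPTLC1 at 26.8 ± 1.89 and KDSR at 18.2 ± 1.36. CERS1 at 11.03 ± 1.32 and CERS5 at 10.2 ± 0.695 CPM per kilobase came next, and their libraries overlapped. SPTLC2 was at 6.31 ± 0.461, CERS6 at 2.77 ± 0.282, CERS4 at 1.28 ± 0.377 and SPTLC3 at 0.0519 ± 0.0103 CPM per kilobase. Of these neighbors in NT cells, only CERS1 and CERS5 overlapped. In TNF-treated cells KDSR (23.3 to 26.8) reached into the range of SPTLC1 (24.7 to 31.4 CPM per kilobase), and CERS1 at 7.75 was listed below CERS5 at 9.03 and overlapped both CERS5 and SPTLC2. The order rests on the transcript length chosen. With the mean length of coding transcripts or the union of exons, KDSR was listed above SPTLC1, whereas CERS2 and DEGS1 were highest and CERS6, CERS4 and SPTLC3 lowest with every length used.

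**Figure D3:**
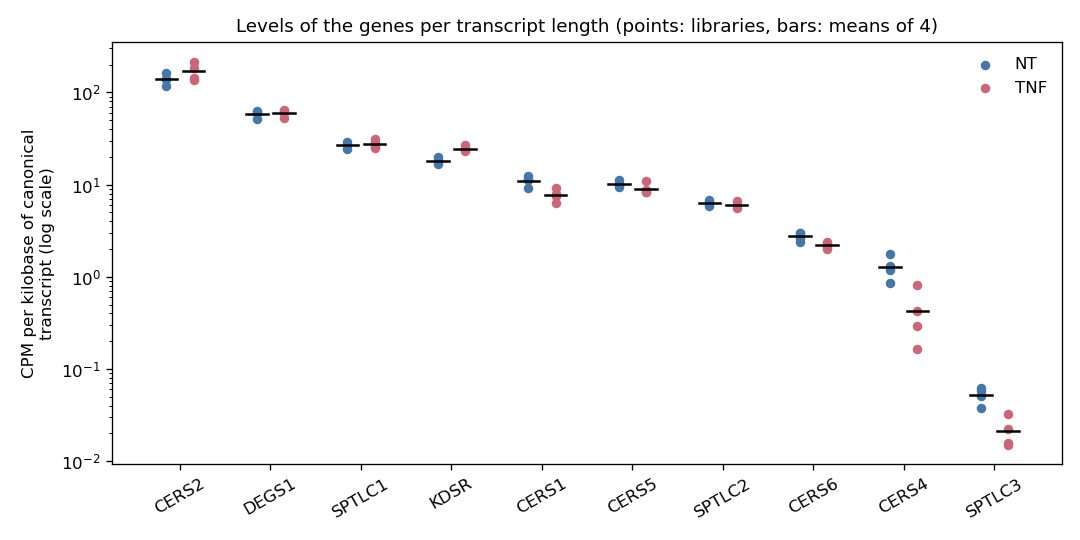
CPM per kilobase of canonical transcript (log axis) of the 10 genes, ordered by their NT mean. Points are the 4 libraries of a group and bars their mean. The genes span from CERS2 at 139 to SPTLC3 at 0.0519 CPM per kilobase in NT cells.

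Within the family of ceramide synthases, CERS2 made up most of the transcripts. Of the summed level per kilobase of the 5 expressed CERS genes, CERS2 took 84.5% ± 1.74 (SD, n = 4; 82.0% to 85.9%) in NT and 89.6% ± 1.40 (87.7% to 90.7%) in TNF libraries. The groups did not overlap in this share, which moves with CERS2 itself as well as with the other 4 genes. CERS1 went from 6.77% to 4.16% of the sum, CERS5 from 6.22% to 4.83%, CERS6 from 1.69% to 1.18% and CERS4 from 0.806% to 0.250% on average. The level of CERS6 per unit of CERS2 was 0.0201 ± 0.00263 in NT and 0.0132 ± 0.0018 in TNF libraries (SD, n = 4 each). For serine palmitoyltransferase, the level of SPTLC1 was 4.25 ± 0.107 times that of SPTLC2 in NT and 4.60 ± 0.253 times in TNF libraries, and that of SPTLC3 was 0.00819 ± 0.00129 and 0.00359 ± 0.00157 times that of SPTLC2. The ratios of SPTLC3 rest on 10 to 13 counts of that gene in NT and 3 to 7 counts in TNF libraries. These shares and ratios are descriptions of transcript levels and were not tested.

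**Figure D4:**
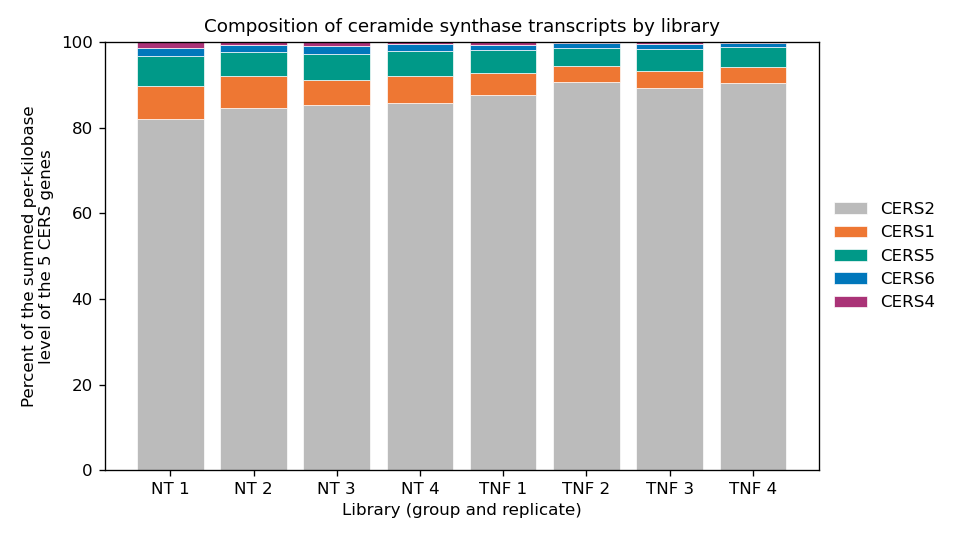
Share of each CERS gene in the summed level per kilobase of the 5 expressed CERS genes, in percent, for each library. CERS2 (grey) takes 82.0% to 85.9% in the NT libraries and 87.7% to 90.7% in the TNF libraries.

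Around these enzymes, 50 genes that supply the pathway, regulate it or use ceramide were examined in lists chosen by function. Of the 42 that were tested, 10 were higher and 8 lower with TNF and 24 were not called (edgeR), with a median log2 fold change of -0.04. Over all tested genes, as above, 14.5% were higher and 9.90% lower, and most of these lists are short, so their counts are descriptions.

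Among the regulators of serine palmitoyltransferase, 4 of 5 genes were tested, with a median log2 fold change of -0.02, and 1 rose. ORMDL2, one of the 3 ORMDL proteins that restrain the enzyme when ceramide is abundant, was at 26.9 to 31.0 CPM in NT and 34.6 to 44.5 CPM in TNF libraries (log2 fold change 0.36, SE 0.09, adjusted p = 0.0192 from edgeR), and the groups did not overlap. The ORMDL2 call was lost in 3 of 21 alternatives, among them without NT replicate 2 (adjusted p 0.0545) or NT replicate 3 (0.0625). ORMDL1 and ORMDL3 had log2 fold changes of 0.04 and -0.08 and were not called, nor was SPTSSA, a small activating subunit, at -0.11.

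Serine, the amino acid substrate of the first step, is made in the cell or imported. Of the 5 genes of this supply, all tested, 4 fell and 1 was not called, with a median log2 fold change of -0.62. PSAT1, an enzyme of serine synthesis, was at 195 to 251 CPM in NT and 109 to 134 CPM in TNF libraries (log2 fold change -0.86, adjusted p = 9.55e-05). The first enzyme of the route, PHGDH, fell by 0.77 on the log2 scale (adjusted p = 0.00986), and in NT replicate 4 its level of 193 CPM lay within the TNF range of 130 to 199 CPM. The PHGDH call was lost in 2 of 21 alternatives, among them no filter on low counts (adjusted p 0.0531). The last one, PSPH, was at 25.8 to 31.7 CPM in NT and 17.3 to 20.8 CPM in TNF libraries (log2 fold change -0.58, adjusted p = 0.00131). SLC1A4, a transporter of serine and other neutral amino acids, fell by 0.62 on the log2 scale (adjusted p = 0.00439), while SLC1A5, another such transporter, was not called at -0.11.

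The fatty acids that ceramide synthases attach are lengthened by the ELOVL elongases and their partner enzymes. Of 13 such genes 11 were tested, 2 rose, 1 fell and 8 were not called, with a median log2 fold change of -0.11. ELOVL7 was at 0.159 to 0.748 CPM in NT and 1.23 to 2.36 CPM in TNF libraries (log2 fold change 2.02, SE 0.42, adjusted p = 0.00536 from edgeR), which rests on 5 to 73 counts per library, so the gene passed the filter through the TNF group. Without NT replicate 1, its highest NT library, the log2 fold change was 2.62, and without the 3 libraries with the most 5.8S, 7SK and 7SL RNA (NT replicates 2 and 4 and TNF replicate 4) it was 1.251. ELOVL2, which lengthens polyunsaturated fatty acids, was at 2.24 to 2.71 CPM in NT and 0.602 to 0.947 CPM in TNF libraries (log2 fold change -1.70, SE 0.21, adjusted p = 0.000162 from edgeR). The groups did not overlap for either gene. ELOVL1, which makes the very long chains that CERS2 uses, rose by 0.33 on the log2 scale (adjusted p = 0.0358). That call was lost in 5 of 21 alternatives (adjusted p up to 0.130), among them without NT replicate 1, 2 or 3 or TNF replicate 2 (0.0755 to 0.0972). DEGS1 takes electrons from cytochrome b5, and of 4 genes of that supply 1 rose, the reductase gene CYB5R3 (log2 fold change 0.28, adjusted p = 0.0424), with 3 not called and a median of 0.19. The CYB5R3 call was lost in 12 of 21 alternatives, among them upper-quartile factors (adjusted p 0.132), library totals (0.187) and every library left out but TNF replicate 4 (0.0530 to 0.126).

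Ceramide is passed on by enzymes of sphingomyelin, hexosylceramide and ceramide phosphate synthesis and by a transfer protein, and of these 7 genes, with a median log2 fold change of 0.05, 2 rose and 2 fell. UGT8, the galactosylceramide synthase gene, was at 24.3 to 30.7 CPM in NT and 12.3 to 14.3 CPM in TNF libraries (log2 fold change -0.97, SE 0.10, adjusted p = 5.7e-05 from edgeR). CERT1, which carries ceramide to the Golgi, fell by 0.32 on the log2 scale (adjusted p = 0.0239). SGMS2, a sphingomyelin synthase gene, and UGCG, the glucosylceramide synthase gene, had log2 fold changes of 0.64 (adjusted p = 0.0360) and 0.46 (adjusted p = 0.0379), and in both the groups overlapped. TNF replicate 4 of UGCG, at 22.7 CPM, lay within the NT range of 19.6 to 24.9 CPM. The UGCG call was lost in 11 of 21 alternatives, among them upper-quartile factors (adjusted p 0.0795), library totals (0.105), limma voom (0.0502) and every library left out but TNF replicate 4 (0.0571 to 0.108). That of SGMS2 was lost in 7, without NT replicate 1, 2 or 3 or TNF replicate 2, 3 or 4 (0.0509 to 0.101) and with the block over the filed counts (0.129). That of CERT1 was lost in 3 of 21 (adjusted p up to 0.0873), among them without TNF replicate 2 (0.0670) or TNF replicate 3 (0.0602).

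Ceramide can also come from sphingomyelin or be taken apart. Of 3 tested sphingomyelinase genes, with a median log2 fold change of 0.48, 2 rose, the lysosomal SMPD1 (log2 fold change 0.51, adjusted p = 0.00418) and the neutral SMPD2 (0.48, adjusted p = 0.0308). TNF replicate 4, at 12.7 CPM, was far above the other TNF libraries of SMPD2 (8.99 to 9.30 CPM), and its call was lost in 8 of 21 alternatives, among them library totals (adjusted p 0.0509) and leaving out NT replicate 1, 2 or 4 or TNF replicate 4 (0.0534 to 0.0947). Without the 3 libraries with the most 5.8S, 7SK and 7SL RNA its log2 fold change was 0.27 (adjusted p 0.220). Of the 4 tested ceramidase genes (median 0.01), 0 were called by edgeR, DESeq2 or limma voom, and 0 had an unadjusted p under 0.05 in edgeR. The acid ceramidase gene ASAH1 was at 16.4 to 21.4 CPM in NT and 16.4 to 19.0 CPM in TNF libraries, with a log2 fold change of -0.04 (SE 0.11, adjusted p = 0.815 from edgeR) whose sign turned in some alternatives. Of 4 tested genes that handle sphingosine and its phosphate, with a median of 0.18, 2 rose and 1 fell. The kinase gene SPHK1 had 10.7 to 13.1 CPM in NT and 22.7 to 24.9 CPM in TNF libraries (log2 fold change 0.96, SE 0.09, adjusted p = 2.74e-05 from edgeR), the other kinase gene SPHK2 a log2 fold change of -0.28 (adjusted p = 0.0184), and the lyase gene SGPL1, whose product ends the pathway, one of 0.40 (adjusted p = 0.00453). The SPHK2 call was lost in 3 of 21 alternatives (adjusted p up to 0.0998), among them without NT replicate 3 (0.0603) or TNF replicate 2 (0.0570).

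**Figure D5:**
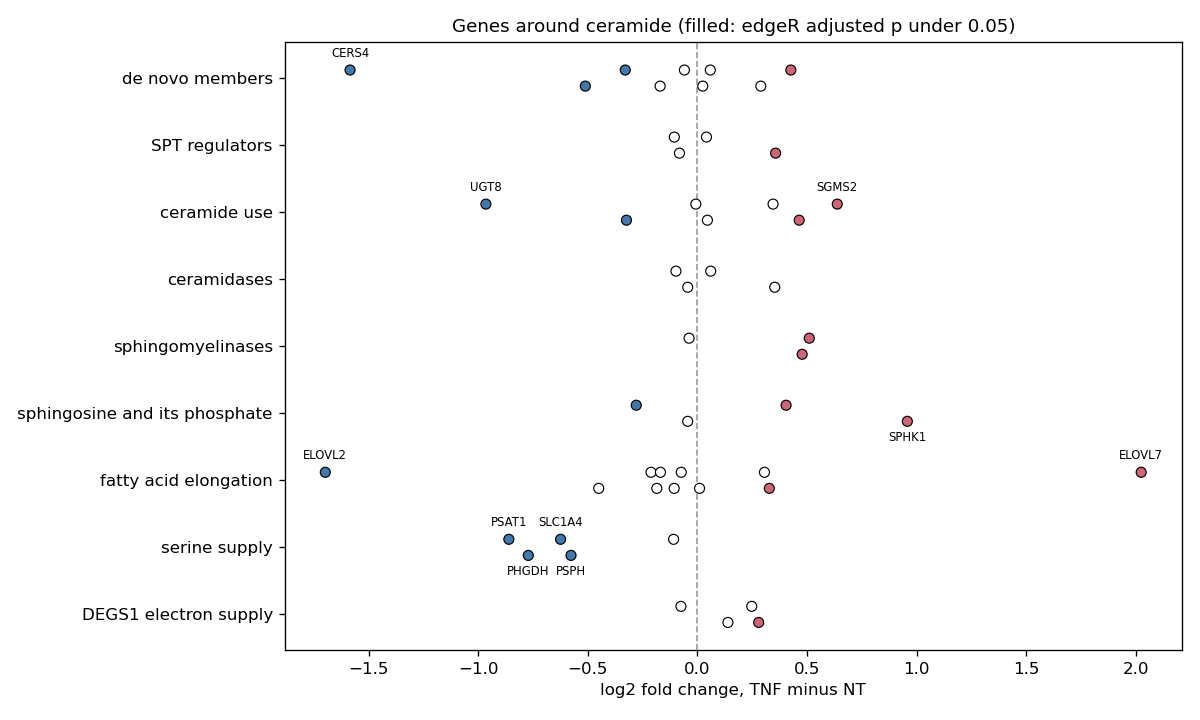
Log2 fold change (TNF minus NT) of the de novo genes and of the genes of 8 surrounding lists, 1 point per tested gene, spread vertically to separate them. Filled points passed an edgeR adjusted p of 0.05 (red higher, blue lower), and genes called with a change over 0.55 carry their name. The serine supply list has 4 of 5 genes filled below 0, and the de novo genes have 3 filled below and 1 above.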

How the data were processed

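RNA was extracted by the authors with a column kit, and stranded libraries were prepared from polyadenylated RNA, aligned with Bowtie2 and counted with RSEM 1.2.25 on GRCh38 (no source used here gives the aligner's version or the strand setting). The deposited values are expected counts per gene, not normalized, in 8 libraries (30989787 to 44373296 counts). They were rounded to whole numbers here, which changed the total by 0.000138%. Columns of the table were matched to samples by title. The single files of the NT samples each hold another NT library's column, so the table was used.

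Genes were filtered by edgeR's filterByExpr (minimum count 10, minimum total 15), scaled with TMM factors and compared between TNF and NT in edgeR 4.0.16 (robust quasi-likelihood, no further covariate). P-values were adjusted over 16186 genes by Benjamini-Hochberg, with a threshold of 0.05. Differences of single experiments used log2 CPM with a prior count of 2. No 2 libraries were alike within counting error (chi-square per degree of freedom at least 12.2 within groups). The titles give the NT and TNF library of a replicate the same experiment date, so the numbers pair the libraries. Their deviations from the group means correlated at 0.351, 0.169, 0.238 and 0.460 in replicates 1 to 4. Libraries of different replicates were not compared in this way, so these values do not test the pairing. DESeq2 1.42.0, limma 3.58.1 (voom), other scalings and filters, the replicate block, the filed counts, stricter thresholds and each library left out were alternatives, in R 4.3.3, and the code was tested on simulated data.

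Positions and lengths come from GENCODE release 44 on GRCh38, while the paper names another release, and promoter windows come from RefSeq (GRCh38.p14). The members, lists and tests were chosen with earlier results of these data known. Named are all 10 members, in each other list up to 4 genes past the threshold with the largest absolute change, UGCG, ASAH1 and SGMS2, and genes that overlap a member. Uncalled genes of a list that are named beside these, and marker genes, were chosen after their values were seen.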

Additional observations from a re-analysis of the deposited data

Results flagged for a closer look

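Of 58 groups of 4 libraries looked at, 5 held 1 library far from the other 3 by Dixon's test, where chance gives 2.9. The members of de novo synthesis were looked at too, and their groups held no such library. TNF replicate 4 stood apart for 2 genes. ORMDL2 was at a log2 CPM of 5.48 there, with the other TNF libraries at 5.12 to 5.17, and SMPD2 at 3.67, with the others at 3.18 to 3.23. CERT1 was at 5.49 in NT replicate 4, against 5.19 to 5.21 in the other NT libraries, and SGPL1 at 4.63 in NT replicate 2, against 4.40 to 4.43. ASAH1 was at 4.04 in TNF replicate 3, against 4.23 to 4.25 in the other TNF libraries.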

How the results depend on the processing

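KDSR and CERS1 were called, in the same direction, in all 21 refits (adjusted p of at most 0.0251 and 0.0437), but CERS1 did not pass the stricter threshold of 0.01 and neither had a log2 fold change over 1 in size. CERS4 was not called without NT replicate 1, without TNF replicate 2 or with the replicate block over the filed counts (adjusted p 0.0505, 0.0559 and 0.0576). CERS6 was not called in 8 of 21, among them without a filter on low counts (-0.34, adjusted p 0.0520) and with the block over the filed counts (0.106). The replicate block brought CERS2 past the threshold, giving 2 members higher, and changed no other member's call, with 3451 genes higher and 2946 lower over all genes against 2345 and 1603. Under the block over the filed counts, which joins libraries whose columns carry different dates, 1 member was lower. Over all genes 1557 were higher and 801 lower, with 4 higher and 5 lower among the other lists.

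With each library left out in turn, 1 member was higher each time and 1 to 4 were lower, over all genes 1880 to 2521 higher and 1110 to 1896 lower, and in the other lists 4 to 8 higher and 6 to 9 lower. SPTLC3 is counted among the members lower wherever it passed the filter and was called. At an adjusted p under 0.01, 0 members were lower, and 1548 genes were higher and 772 lower. With a log2 fold change over 1 also required, 0 members were higher and 1 lower (CERS4), and 909 genes were higher and 387 lower. Scaling by library totals gave 1925 higher and 2514 lower (43.4% higher), and upper-quartile factors 2045 and 2196 (48.2%), against 59.4% with TMM. The median of all genes moved by -0.08 and -0.06.

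The log2 fold changes of 3 genes near 0 changed sign, and these were called in no alternative. SPTLC1 was at -0.00097 with upper-quartile factors and -0.0269 with library totals, and at -0.0019 to 0.107 with 1 library left out (below 0 without TNF replicate 4). DEGS1 was at -0.0341 and -0.0591, and at -0.0417 to 0.0776 with 1 library left out (below 0 without NT replicate 1, and at -0.0174 without TNF replicate 2). ASAH1 was at -0.107 to 0.0158 with 1 library left out (above 0 without NT replicate 4, and at 0.0045 without TNF replicate 3) and at 0.0941 without the 3 libraries with the most 5.8S, 7SK and 7SL RNA (NT replicates 2 and 4, TNF replicate 4), an alternative chosen after seeing the data, as were the block over the filed counts, leaving out experiment 4 and summing CERS1 with GDF1. Of 398 values of the other 19 named genes under the alternatives, 54 lost their call (CYB5R3 in 12 of 21, UGCG in 11, SMPD2 in 8 and SGMS2 in 7). Among the elongation genes DESeq2 called 3 lower where edgeR called 1, and of the genes that use ceramide limma voom called 1 higher where edgeR called 2. With at least 10 counts required in every library, CERS4 and ELOVL7 gave no value. CERS4 and SPTLC3, with few counts, are limited by depth.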
